A study of Mus musculus with 16 samples.

Results

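The nuclear genes of the mitochondrial respiratory chain and ATP synthase were followed in cultured CD4 T cells of mice that lacked or kept Ezh2. Members were every gene named Nduf with a subunit letter and number, Sdha to Sdhd, Uqcr, Cox4 to Cox8 or Atp5 in the RNA files, which gave 84 of 23420 genes. By complex these were 35 genes of complex I, 4 of complex II, 8 of complex III, 20 of complex IV and 17 of complex V. Ndufa4 and Ndufa4l2 were counted with complex IV, where the Ndufa4 protein sits despite its name. A few names in the set are not classical subunits: Cox7a2l is a factor of respiratory supercomplexes, and Atp5s and Atp5sl are named after ATP synthase without being constant parts of it.

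The cells came from Ezh2fl/fl.CD4Cre mice, labelled Ezh2-/- and called Ezh2-deleted here, and from Ezh2fl/fl mice without Cre, labelled wild type and called control. Ezh2 is the enzyme that places the trimethyl mark on lysine 27 of histone H3 (H3K27me3), a mark of repressed genes. The Cre is driven by Cd4, which is active from the thymus onward, so Cre acts before the cells are cultured. Sorted naive cells of both genotypes were activated with anti-CD3 (5 ug/ml) and anti-CD28 (1 ug/ml). The iTreg cultures, meant to yield induced regulatory T cells, also received IL-2 at 200 U/ml and TGF-b1 at 5 ng/ml, and the neutral Th0 cultures received IL-2 at 50 U. By title, iTreg cells were taken on day 5 and Th0 cells on day 4, whereas the protocol names day 4, so culture and day of harvest cannot be told apart. RNA was sequenced from 3 libraries of each genotype in each culture. H3K27me3 ChIP-seq was made from Th0 cells with 2 libraries of each genotype. Libraries are named by the numbers of their titles.

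Electrons enter the chain from NADH at complex I and from succinate at complex II, which is also an enzyme of the TCA cycle. Ubiquinone carries them to complex III, cytochrome c carries them on to complex IV, and complex IV passes them to oxygen. The proton gradient built on the way drives complex V, the ATP synthase. Every complex but II draws part of its core from mitochondrial DNA, and all other subunits are encoded in the nucleus. T cells enlarge their mitochondria when they are activated, and regulatory T cells are known for a strong use of oxidative phosphorylation. The mitochondrially encoded subunits were not analysed here.

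RNA libraries held 21910114 to 28443427 counted reads and ChIP libraries 11124172 to 15103496. Ezh2 itself, in CPM (reads per 1e+06 counted reads), was at 123 in iTreg Ezh2KO.150, 118 in Ezh2KO.153 and 48.7 in Ezh2KO.165, against 251, 241 and 166 in the control iTreg libraries 154, 155 and 177. In Th0 it had 169, 154 and 148 CPM in Ezh2-deleted libraries, against 307, 295 and 312 in controls. Reads remained in every Ezh2-deleted library, and the counts cover the whole gene, so they do not tell deleted from intact transcripts. Foxp3, which defines the regulatory state, was at 65.2 to 90.9 CPM in Ezh2-deleted iTreg libraries and 850 to 979 CPM in control iTreg libraries, so the Ezh2-deleted iTreg cultures had little of the marker they are named for. The T cell genes Cd3e, at 138 to 355 CPM, and Cd4, at 246 to 631 CPM, were high in all 12 libraries. Summed markers of erythroid, muscle and germ cells stayed at or under 4.70 CPM in every library, with S100a8, Hbb-b1 and Hba-a1 at 0. The iTreg libraries Ezh2KO.165 and control 177 stood apart from the other libraries of their groups. Chi-square per degree of freedom between these and their group partners was 134 to 446, against 3.70 to 16.4 for every other RNA pair within a group. Th0 libraries that carry the same numbers did not stand apart to that degree. Th0 Ezh2KO.165 was still the odd library of its group, at 15.7 and 16.4 against its partners, which had 3.70 between them. Th0 control 177 was at 10.1 and 11.6 against its partners. RNA values below come from all 12 libraries unless the fit without those 2 iTreg libraries is named.

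Promoter windows reach from 250 bases before to 50 bases after the annotated start (RefSeq, GRCm38.p6, the assembly known as mm10). They were found for 69 of the 84 members. The windows below belong to genes on which the results turn. With all 12 libraries, Ndufa4 and Ndufv3 were each called lower with Ezh2 deletion in 1 culture. Cox6b2 had the highest mean H3K27me3 density of the set in control cells, carried by 1 of the 2 control libraries, and is set beside Cox6b1, its widely expressed paralogue. Sdhb was lower in iTreg than in Th0, and Sdhd had the largest gain of H3K27me3 reads. Capitals mark matches to 3 motifs searched on both strands: GCGCANGCG for NRF1, CCGGAAG for the ETS factors that include GABP, and ATGGCGGC for YY1. These factors are known activators of respiratory chain genes.
Ndufa4 promoter, chr6:11907401-11907700, - strand: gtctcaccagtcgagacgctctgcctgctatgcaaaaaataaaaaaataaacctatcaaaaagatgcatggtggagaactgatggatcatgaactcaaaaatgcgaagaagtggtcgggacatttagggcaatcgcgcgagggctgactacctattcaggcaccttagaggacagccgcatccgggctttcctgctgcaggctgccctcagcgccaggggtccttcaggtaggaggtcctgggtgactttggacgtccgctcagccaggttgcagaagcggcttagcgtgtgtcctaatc
Ndufv3 promoter, chr17:31519865-31520164, + strand: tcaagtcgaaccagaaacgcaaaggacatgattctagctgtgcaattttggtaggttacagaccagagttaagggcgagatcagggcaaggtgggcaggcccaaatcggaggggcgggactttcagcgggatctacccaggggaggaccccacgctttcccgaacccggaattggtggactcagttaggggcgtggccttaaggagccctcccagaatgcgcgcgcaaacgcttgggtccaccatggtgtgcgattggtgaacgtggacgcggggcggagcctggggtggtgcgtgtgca
Cox6b2 promoter, chr7:4753045-4753344, - strand: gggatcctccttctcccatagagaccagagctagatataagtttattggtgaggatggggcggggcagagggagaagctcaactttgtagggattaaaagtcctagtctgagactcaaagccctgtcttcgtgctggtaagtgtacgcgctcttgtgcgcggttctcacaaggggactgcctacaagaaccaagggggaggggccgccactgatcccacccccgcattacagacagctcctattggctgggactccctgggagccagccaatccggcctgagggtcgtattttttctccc
Cox6b1 promoter, chr7:30626065-30626364, - strand: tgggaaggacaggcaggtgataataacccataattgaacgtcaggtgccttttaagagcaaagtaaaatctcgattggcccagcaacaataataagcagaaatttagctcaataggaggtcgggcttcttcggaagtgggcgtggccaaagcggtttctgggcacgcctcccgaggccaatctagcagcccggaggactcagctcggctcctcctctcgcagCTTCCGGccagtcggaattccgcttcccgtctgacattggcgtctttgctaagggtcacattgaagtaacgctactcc
Sdhb promoter, chr4:140961021-140961320, + strand: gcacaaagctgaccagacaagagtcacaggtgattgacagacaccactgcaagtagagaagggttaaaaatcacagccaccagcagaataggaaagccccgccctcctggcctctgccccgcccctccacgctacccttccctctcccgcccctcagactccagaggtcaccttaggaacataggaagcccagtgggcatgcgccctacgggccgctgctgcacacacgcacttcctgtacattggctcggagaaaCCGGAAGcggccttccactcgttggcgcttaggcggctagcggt
Sdhd promoter, chr9:50603800-50604099, - strand: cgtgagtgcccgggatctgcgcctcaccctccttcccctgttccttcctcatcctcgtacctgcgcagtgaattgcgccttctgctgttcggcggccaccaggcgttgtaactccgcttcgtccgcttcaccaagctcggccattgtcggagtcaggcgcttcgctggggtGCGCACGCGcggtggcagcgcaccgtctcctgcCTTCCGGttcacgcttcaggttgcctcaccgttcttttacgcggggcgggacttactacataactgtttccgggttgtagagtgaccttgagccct

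The windows of Ndufa4, Ndufv3 and Cox6b2 held none of these letters. Those of Cox6b1 and Sdhb each held 1 ETS match, and that of Sdhd held 1 NRF1 and 1 ETS match. Over the 69 members, 36 (52.2%) held at least 1 match, against 35.1% of 10205 genes tested for RNA and 17.1% of all 27025 genes with a window. NRF1 matches were in 20 members (29.0%), against 15.1% of tested genes and 7.03% of all. ETS matches were in 16 members (23.2%), against 20.2% and 9.93%. YY1 matches were in 7 members (10.1%), against 5.60% and 2.60%. Some matches lie within each other, since the NRF1 letters can be read from both strands at neighbouring positions. By complex, 17 of 31 genes of complex I held a match in a window, 3 of 3 of complex II, 3 of 5 of complex III, 3 of 14 of complex IV and 10 of 16 of complex V. A match describes letters in a window and shows no binding.

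The members together took 0.568% to 0.987% of counted reads in Ezh2-deleted iTreg libraries and 0.661% to 0.882% in control iTreg libraries, and 1.13% in each Ezh2-deleted Th0 library against 1.08% to 1.16% in control Th0 libraries. Per length of transcript, the catalytic beta subunit of ATP synthase, Atp5b, was the highest member, at 514 ± 277 RPKM in Ezh2-deleted and 452 ± 152 RPKM in control iTreg cells and at 874 ± 6.39 RPKM in Ezh2-deleted and 849 ± 34.3 RPKM in control Th0 cells (SD, n = 3 each). RPKM is CPM per kilobase of gene length. Atp5g3, which encodes the rotor ring peptide of ATP synthase, was next in Th0 cells at 555 ± 3.21 RPKM with the deletion and 510 ± 28.5 RPKM in controls. Among core members of complex I, Ndufv1, the NADH-binding subunit, was at 61.1 ± 0.803 RPKM in Ezh2-deleted and 62.7 ± 1.13 RPKM in control Th0 cells. Ndufs1, which carries iron-sulphur clusters, was at 9.89 ± 0.138 and 10.2 ± 0.0602 RPKM. The gene lengths used were 11184 bases for Ndufs1 and 1572 bases for Ndufv1, and the order in RPKM rests on them. In CPM Ndufs1 was the higher, at 110.6 in Ezh2-deleted and 113.5 in control Th0 cells, against 96.0 and 98.5 for Ndufv1. Levels near 0 were seen for the isoforms known from other tissues, which are described with the histone mark. Ndufs5, a small complex I subunit, had 0 reads in all 12 libraries, and RefSeq lists a pseudogene for it and for 7 other members, so reads of these genes may be split or dropped between copies. A filter on low counts kept 77 of the 84 members for testing.

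**Figure D1:**
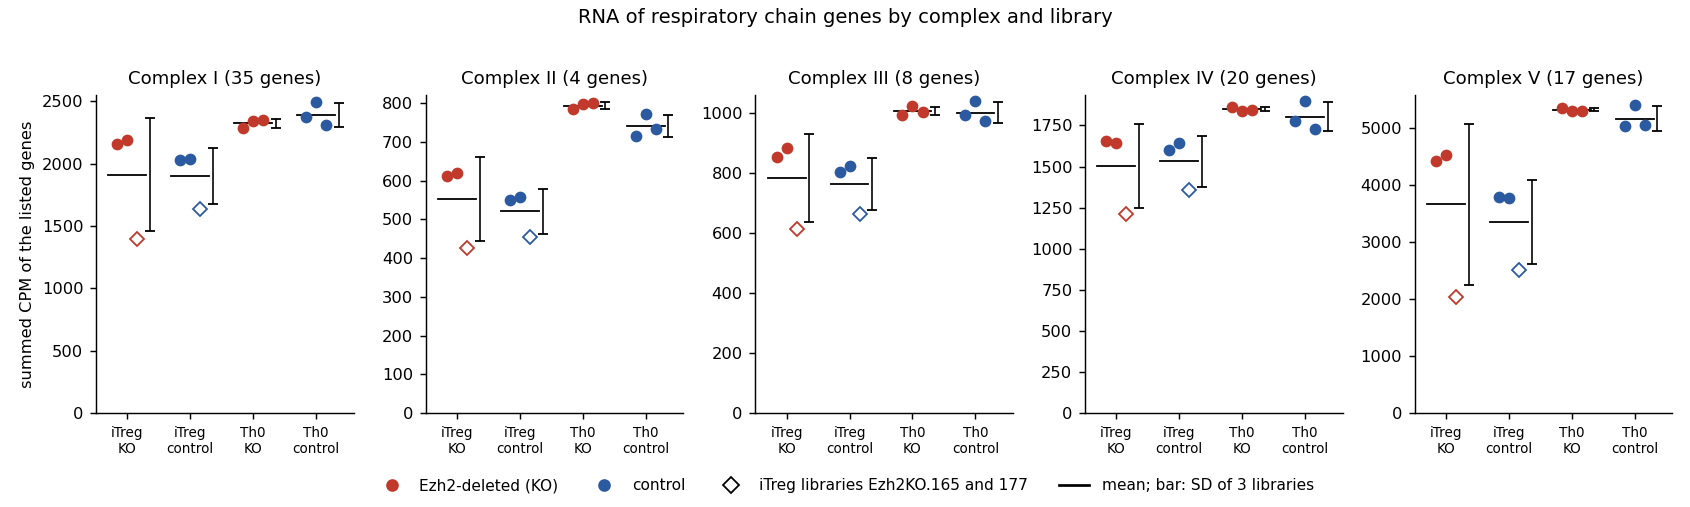
Summed CPM of the genes of each complex in every RNA library (vertical axis from 0), with the 4 groups along the horizontal axis, the mean as a line and the SD of 3 libraries as a bar. The iTreg libraries Ezh2KO.165 and 177 (open diamonds) lie below the other iTreg libraries in all 5 panels, and all iTreg sums lie below all Th0 sums.

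Ezh2 deletion in iTreg culture left most respiratory chain genes without a called change and lowered 1 of them strongly. That gene was Ndufa4, whose protein is a subunit of cytochrome c oxidase. Ndufa4 had 35.6 CPM in Ezh2KO.150, 40.0 CPM in Ezh2KO.153 and 17.7 CPM in Ezh2KO.165, against 103, 119 and 66.9 CPM in the control iTreg libraries 154, 155 and 177. The groups did not overlap, and the lowest value in each group was that of the library that stood apart. Means were 31.1 ± 11.8 and 96.4 ± 26.7 CPM (SD, n = 3 each), a log2 fold change of -1.63 ± 0.293 (SE; edgeR quasi-likelihood F test, adjusted p = 0.00406 over 12845 genes). Ndufa4 spans chr6:11900373-11907446 on the minus strand. Without the 2 iTreg libraries that stood apart the change was -1.56 ± 0.0999 (adjusted p = 1.28e-07), and leaving out any 1 library kept it between -1.86 and -1.35 with an adjusted p of at most 0.0194. A fit of the 6 iTreg libraries alone gave -1.62 with adjusted p = 0.0821. In Th0 cells Ndufa4 had 149, 134 and 129 CPM with the deletion, against 134, 157 and 145 CPM in controls, and these groups overlapped (log2 fold change -0.12 ± 0.284, adjusted p = 0.905).

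No member was called higher and 1 of 77 was called lower in iTreg, while 9.45% of all genes tested were called higher and 7.26% lower. The median log2 fold change of the members was 0.05, against 0.01 over all genes. The members with the next smallest p were Ndufb11, a membrane-arm subunit of complex I, at -0.19 ± 0.104 (adjusted p = 0.294), and Ndufs4, a complex I subunit needed for its full assembly, at 0.46 ± 0.259 (adjusted p = 0.304). Markers of other cells differed between the same groups. Of the CD8 T cell list 1 of 2 genes was called higher (2 without the libraries that stood apart), with summed levels of 39.6 to 138 CPM in Ezh2-deleted and 18.01 to 26.7 CPM in control iTreg libraries. The dendritic list summed to 2.33 to 4.92 and 0.326 to 0.457 CPM, with Clec9a at or near 0 throughout. The NK list summed to 0.274 to 1.53 and 0 to 0.204 CPM, with Ncr1 at 0. The tested genes of these 2 lists passed the low-count filter through Ezh2-deleted libraries, so no calls are given for them. Of the B cell list 3 of 6 were called lower (1 without those libraries), at 3.73 to 5.66 and 10.9 to 11.9 CPM. The part of these cells in the change of Ndufa4 was not tested. In bulk RNA a lower level per cell and fewer cells with the gene cannot be told apart.

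The count of called members in iTreg rested on the 2 libraries that stood apart. Without them 29 of 78 members were called higher and 4 lower, with a median of 0.11 against -0.000617 over all genes, of which 28.7% were called higher and 28.3% lower. The 29 comprised 11 of complex I, 2 of complex II, 4 of complex III, 4 of complex IV and 8 of complex V. Atp5f1, which encodes the b subunit of the ATP synthase stalk, had 482 and 492 CPM in Ezh2KO.150 and Ezh2KO.153, against 304 and 303 CPM in controls 154 and 155. In the libraries left out it had 151 CPM in Ezh2KO.165 and 201 CPM in control 177, which is the opposite order. Its log2 fold change was 0.68 ± 0.0449 without them (adjusted p = 3.22e-08) and 0.48 ± 0.36 with them (adjusted p = 0.465). Ndufs4 had 72.7 and 74.7 CPM in Ezh2KO.150 and Ezh2KO.153, against 46.7 and 48.3 CPM in controls 154 and 155, and 32.7 CPM in Ezh2KO.165 against 36.8 CPM in control 177. Without those libraries its change was 0.63 ± 0.0553 (adjusted p = 4.75e-07). Cox5a, a nuclear-encoded subunit of complex IV, rose by 0.33 ± 0.0497 (adjusted p = 8.11e-05) in the same fit, and Atp5b rose by 0.32 ± 0.0508 (adjusted p = 0.000121). Cox7a2l fell by 0.35 on the log2 scale (adjusted p = 0.000437), with 187 and 184 CPM in Ezh2KO.150 and Ezh2KO.153, against 222 and 251 CPM in controls 154 and 155. With 2 libraries a group, that fit takes most of its spread from the Th0 libraries.

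**Figure D2:**
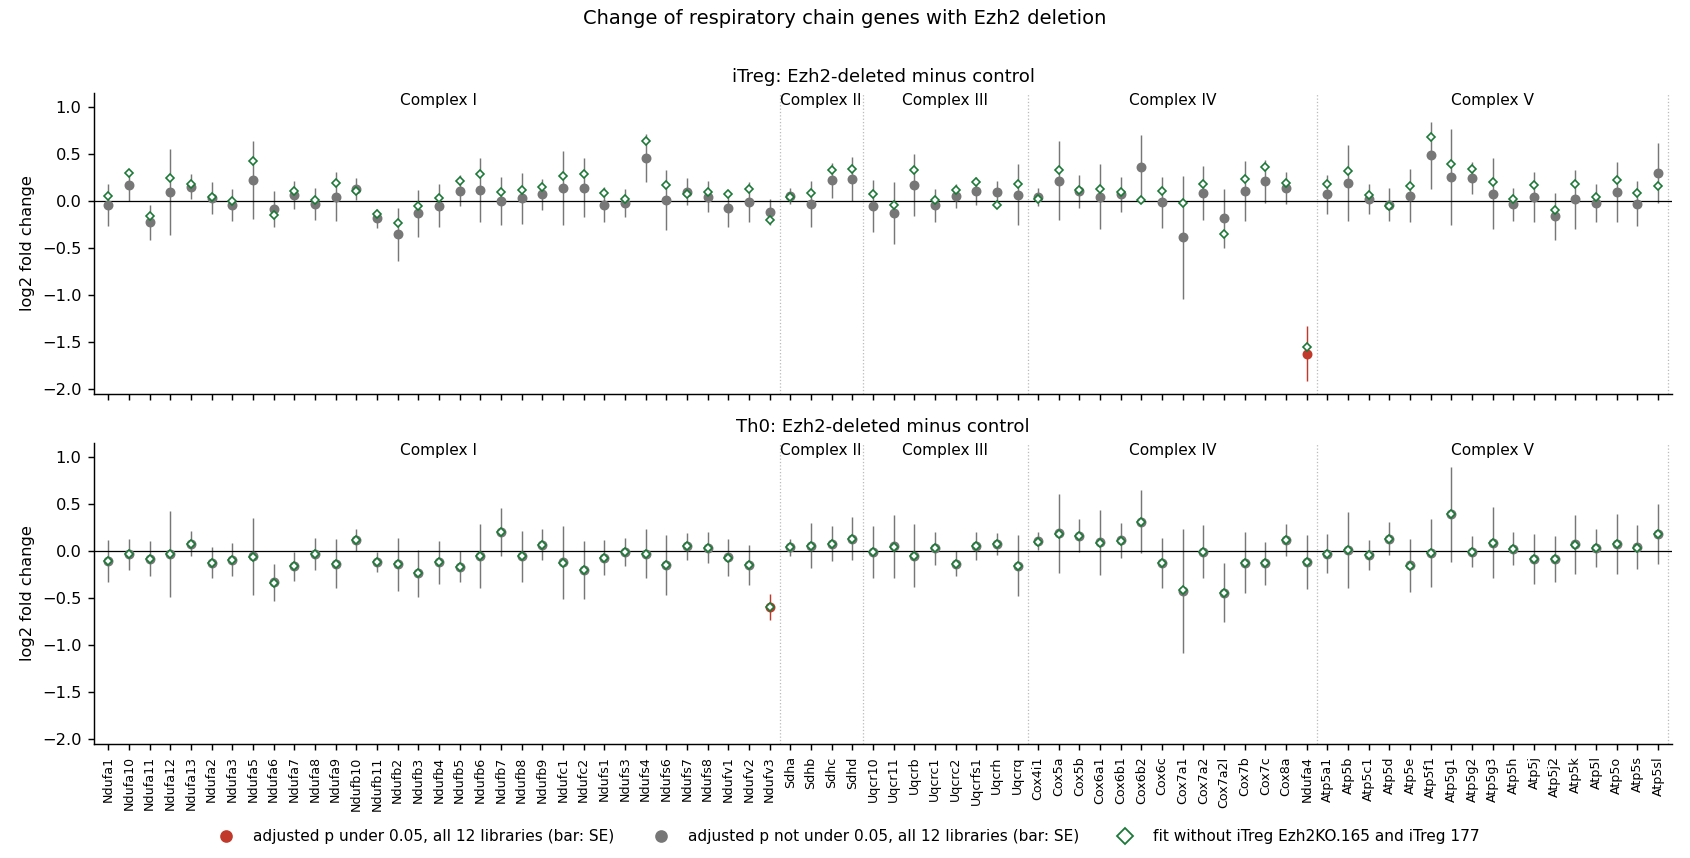
Log2 fold change of tested members with Ezh2 deletion (vertical axis), ordered by complex along the horizontal axis, iTreg above and Th0 below. Filled circles with SE bars come from all 12 libraries and are red where called; open green diamonds come from the fit without iTreg Ezh2KO.165 and 177. Ndufa4 at -1.63 in iTreg and Ndufv3 at -0.59 in Th0 are the only red points, and in Th0 the diamonds lie on the circles.

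In Th0 cells the deletion lowered Ndufv3 and left the other 76 tested members uncalled. Ndufv3 encodes a small accessory subunit of the NADH-binding part of complex I. It had 47.4 CPM in Th0 Ezh2KO.165, 46.7 CPM in Ezh2KO.174 and 46.6 CPM in Ezh2KO.175, against 74.3, 68.5 and 64.2 CPM in the control Th0 libraries 173, 176 and 177. The groups did not overlap, and the Ezh2-deleted libraries differed from each other by less than 1 CPM. The log2 fold change was -0.59 ± 0.138 (adjusted p = 0.0198), with means of 46.9 ± 0.424 and 69.0 ± 5.11 CPM (SD, n = 3 each). Ndufv3 spans chr17:31520115-31531321 on the plus strand. Leaving out 1 Th0 library gave changes of -0.65 to -0.54, and the call was lost without Ezh2KO.165, Ezh2KO.174, Ezh2KO.175, control 173 or control 176 (adjusted p up to 0.0895). In iTreg, Ndufv3 had 52.4, 48.7 and 43.5 CPM with the deletion, against 58.8, 57.4 and 41.7 CPM in controls. The groups overlapped only through control 177, which stood apart. In the edgeR fit without the 2 iTreg libraries that stood apart, Ndufv3 was called lower in iTreg too, at -0.20 ± 0.068 (adjusted p = 0.021).

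Of all genes tested in Th0, 8.74% were called higher and 3.22% lower, against 0 and 1 of the 77 members; 1 member had an unadjusted p under 0.05, and DESeq2 called 1. The median change of the members was -0.03, against -0.00172 over all genes. Ndufa6, an accessory subunit of complex I, was at -0.34 ± 0.196 (adjusted p = 0.373), and Cox7a2l at -0.45 ± 0.315 (adjusted p = 0.492). Cox7a2l had 132, 135 and 138 CPM in Ezh2-deleted Th0 libraries, against 185, 186 and 169 CPM in controls, without overlap. B cell markers differed between these groups. All 6 listed genes were called higher, with sums of 69.9 to 165.1 CPM in Ezh2-deleted and 23.2 to 41.5 CPM in control Th0 libraries, and none was at 0. Of 6 T cell markers tested 3 were called lower (6 without the 2 iTreg libraries), at sums of 1277 to 1543 and 2549 to 2641 CPM. The NK list summed to 0.844 to 1.71 and 0 to 0.111 CPM, and its 1 tested gene passed the filter through Ezh2-deleted libraries. The part of other cells in these changes was not tested.

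Without the 2 iTreg libraries, whose spread enters the common fit, 8 of 78 members were called higher and 15 lower in Th0, against a background of 26.3% and 25.3%. Ndufv3 was then at -0.59 ± 0.055 (adjusted p = 1.05e-06), Cox7a2l at -0.45 ± 0.0539 (adjusted p = 1.24e-05) and Ndufa6 at -0.34 ± 0.0507 (adjusted p = 8.84e-05). The largest rise among the widely expressed members was that of Atp5g1, another gene for the rotor ring peptide, at 0.39 ± 0.0521 (adjusted p = 3.33e-05). Atp5g1 had 130, 125 and 124 CPM with the deletion, against 88.9, 101 and 93.6 CPM in controls. By complex, 1 member of complex I rose and 8 fell, 1 of complex II rose, 2 of complex III fell, 3 of complex IV rose and 4 fell, and 3 of complex V rose and 1 fell. The rises in complex IV include Cox4i2, which passed the low-count filter only through the libraries where it is high.

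Cox4i2 gained reads from near 0. It encodes an isoform of the regulatory subunit 4 of complex IV that is known from lung. It had 20 reads in Th0 Ezh2KO.165, 19 in Ezh2KO.174 and 10 in Ezh2KO.175, against 0, 0 and 1 in the control Th0 libraries 173, 176 and 177. In iTreg it had 4, 3 and 1 reads with the deletion and 4, 1 and 1 in controls. This level, at most 0.839 RPKM as a group mean, lay far below that of its widely expressed paralogue Cox4i1, at 378 ± 8.37 RPKM in Ezh2-deleted and 345 ± 14.4 RPKM in control Th0 cells. It did not pass the filter with all 12 libraries. It passed without the 2 iTreg libraries, through its reads in Ezh2-deleted Th0 libraries. Its higher call in Th0 in that fit follows from the same reads and adds no support. With 1 read over the control group no fold is given. B cell marker sums were 165.1 CPM in Ezh2KO.165, 69.9 CPM in Ezh2KO.174 and 81.4 CPM in Ezh2KO.175, and the part of B cells was not tested.

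**Figure D3:**
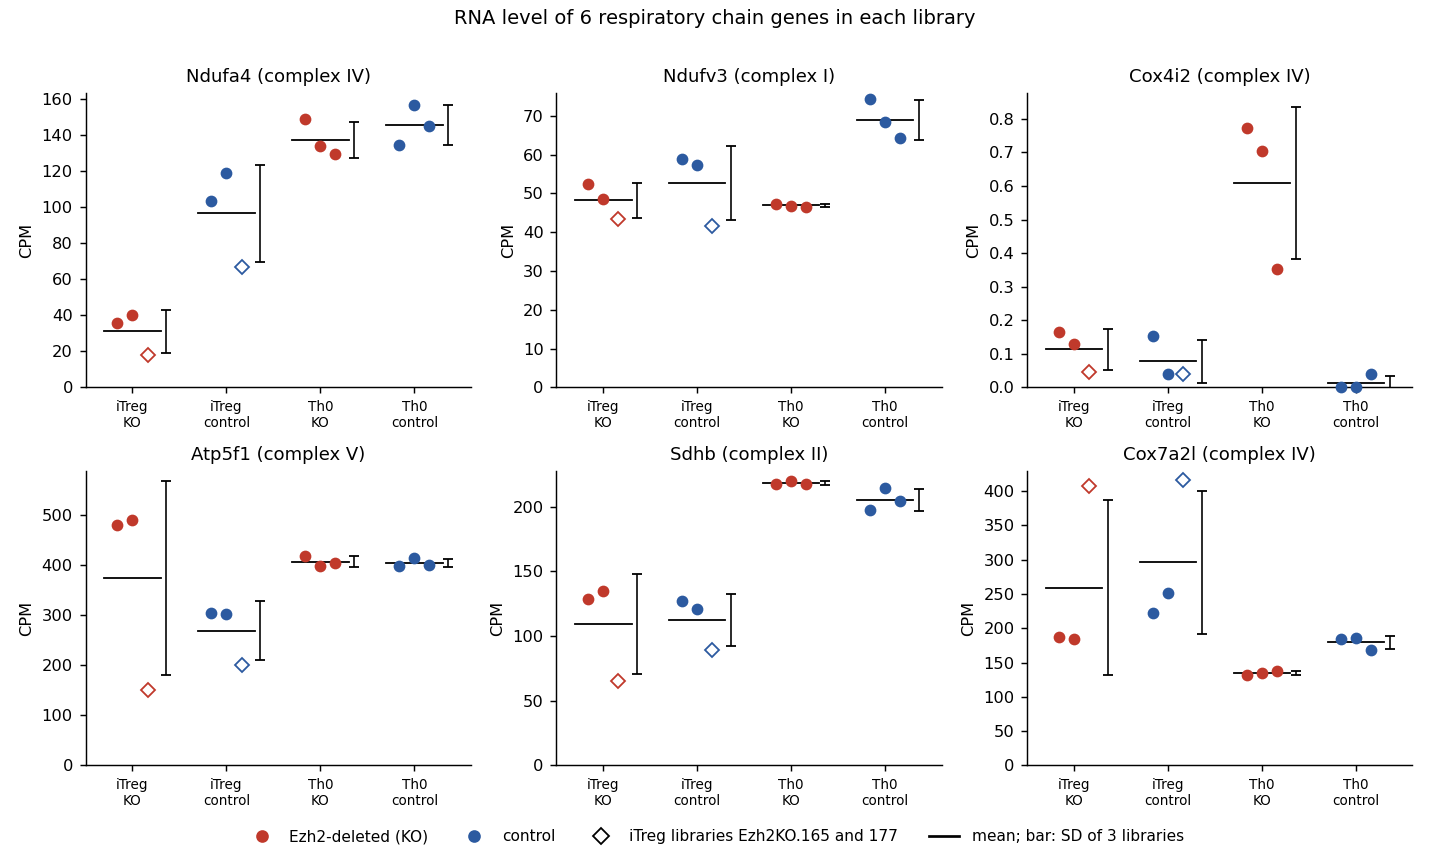
CPM of Ndufa4, Ndufv3, Cox4i2, Atp5f1, Sdhb and Cox7a2l in each library (vertical axes from 0; points are libraries, lines are means, bars are SD of 3 libraries). Ndufa4 at 17.7 to 40.0 CPM in Ezh2-deleted iTreg libraries lies below all others, and Cox7a2l in the 2 libraries drawn as open diamonds, at 407 and 416 CPM, lies above all others.

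Whether the deletion acted differently in the 2 cultures was tested as the iTreg change minus the Th0 change. No member was called, with 1.63% of all genes called higher and 2.86% lower; 2 members had an unadjusted p under 0.05, and DESeq2 called 1. Ndufa4 had the smallest p, at -1.51 ± 0.405 (adjusted p = 0.0696 with edgeR and 0.00797 with DESeq2). It was called without the 2 iTreg libraries, at -1.44 ± 0.125 (adjusted p = 6.14e-06). Ndufv3 was at 0.47 ± 0.194 (adjusted p = 0.266) and Ndufs4 at 0.48 ± 0.365 (adjusted p = 0.671). In the fit without the 2 libraries 27 members were called higher and 2 lower, against 19.9% and 21.3% of all genes. The 2 lower ones were Ndufa4 and Cox4i2. Cox4i2 entered that fit through its reads in Ezh2-deleted Th0 libraries, so its call restates those reads.

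Respiratory chain RNA was lower in iTreg than in Th0 culture. In control cells 71 of 77 tested members had a negative log2 difference, iTreg over Th0, with a median log2 difference of -0.48 against 0.06 over all genes. Of these 16 were called lower and 1 higher, against 11.5% and 19.9% of all genes. In Ezh2-deleted cells 71 of 77 were also negative, with a median of -0.41 against 0.04, and 9 were called lower and 2 higher, against 8.75% and 16.6%. The called falls in control cells comprised 5 of complex I, 3 of 4 tested members of complex II, 5 of 8 of complex III, 0 of 14 of complex IV and 3 of complex V.

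Sdhb, the iron-sulphur subunit of complex II, had 129, 135 and 65.0 CPM in Ezh2-deleted iTreg libraries, against 217, 220 and 218 CPM in Ezh2-deleted Th0 libraries. In controls it had 127, 121 and 89.2 CPM in iTreg and 198, 214 and 205 CPM in Th0. All 6 iTreg values lay below all 6 Th0 values. The differences were -1.03 ± 0.245 (adjusted p = 0.0175) in Ezh2-deleted and -0.94 ± 0.244 (adjusted p = 0.0183) in control cells. Sdha, the flavoprotein subunit that oxidises succinate, differed by -0.31 ± 0.0891 (adjusted p = 0.0329) and -0.32 ± 0.0892 (adjusted p = 0.0233). Sdhc, a membrane anchor, was at -0.45 ± 0.185 (adjusted p = 0.09) in Ezh2-deleted cells and fell in control cells by 0.60 on the log2 scale (adjusted p = 0.0356). Uqcrc1, a core protein of complex III, fell in both genotypes, at -0.61 ± 0.18 (adjusted p = 0.0356) in Ezh2-deleted and -0.53 ± 0.179 (adjusted p = 0.0469) in control cells. Uqcrc2, the other core protein, was at -0.30 ± 0.129 (adjusted p = 0.101) in Ezh2-deleted cells and fell by 0.49 on the log2 scale (adjusted p = 0.0194) in control cells. In complex IV, Cox4i1 was at -0.17 ± 0.0968 (adjusted p = 0.185) and -0.11 ± 0.0968 (adjusted p = 0.368). In complex III, the small subunit gene Uqcr10 differed by -0.86 ± 0.281 (adjusted p = 0.0488) and -0.82 ± 0.28 (adjusted p = 0.0491). Uqcrq was at -0.73 ± 0.324 (adjusted p = 0.113) in Ezh2-deleted and -0.95 ± 0.325 (adjusted p = 0.0493) in control cells. Uqcrfs1, the Rieske iron-sulphur protein, fell in both, by 0.49 and 0.54 on the log2 scale. Atp5a1, the alpha subunit of ATP synthase, had 803, 828 and 456 CPM in Ezh2-deleted iTreg libraries and 1066, 1062 and 1058 CPM in Ezh2-deleted Th0 libraries, and differed by -0.64 ± 0.207 (adjusted p = 0.0476). In control cells it differed by -0.74 ± 0.208 (adjusted p = 0.0243). Ndufc2, a membrane-arm subunit of complex I, differed by -0.60 ± 0.31 (adjusted p = 0.158) and -0.94 ± 0.312 (adjusted p = 0.0445). Ndufa4 showed the largest difference in Ezh2-deleted cells, at -2.17 ± 0.298 (adjusted p = 0.00165), and was at -0.66 ± 0.286 (adjusted p = 0.097) in control cells.

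Few members were higher in iTreg. Atp5sl, whose protein is a factor of complex I assembly in human cells, had 35.2, 36.4 and 78.0 CPM in Ezh2-deleted iTreg libraries and 20.1, 18.5 and 20.0 CPM in Ezh2-deleted Th0 libraries. In controls it had 30.9, 33.1 and 58.1 CPM in iTreg and 15.9 to 18 CPM in Th0. It rose by 1.32 ± 0.324 (adjusted p = 0.0192) and 1.20 ± 0.324 (adjusted p = 0.0208). Ndufa6 rose in Ezh2-deleted cells by 0.64 ± 0.197 (adjusted p = 0.04) and was at 0.39 ± 0.196 (adjusted p = 0.138) in controls.

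Most of these single calls were lost when 1 Th0 library of the same genotype was left out. In Ezh2-deleted cells Sdhb, Uqcr10, Atp5a1, Atp5sl and Ndufa6 lost their call without any 1 of the 3 Ezh2-deleted Th0 libraries, with adjusted p up to 0.123, while Ndufa4 stayed at or under 0.00877. Without iTreg Ezh2KO.165 the differences were smaller, at -0.56 for Uqcr10, -0.41 for Atp5a1, 0.84 for Atp5sl and 0.385 for Ndufa6 (adjusted p = 0.0693). In control cells Uqcr10, Uqcrq and Ndufc2 lost their call without any 1 of the 6 control libraries, with adjusted p up to 0.161. Sdhb lost it without iTreg control 177 or Th0 control 176 or 177 (up to 0.0679), and Atp5sl without iTreg control 177 or any Th0 control (up to 0.0782). In the fit without iTreg Ezh2KO.165 and control 177 all of them were called. Sdhb was then at -0.76 in Ezh2-deleted and -0.79 in control cells, Sdha at -0.27 and -0.27, Uqcr10 at -0.56 and -0.65, Atp5a1 at -0.41 and -0.62, Atp5sl at 0.84 and 0.86, and Ndufa6 at 0.385 and 0.20.

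**Figure D4:**
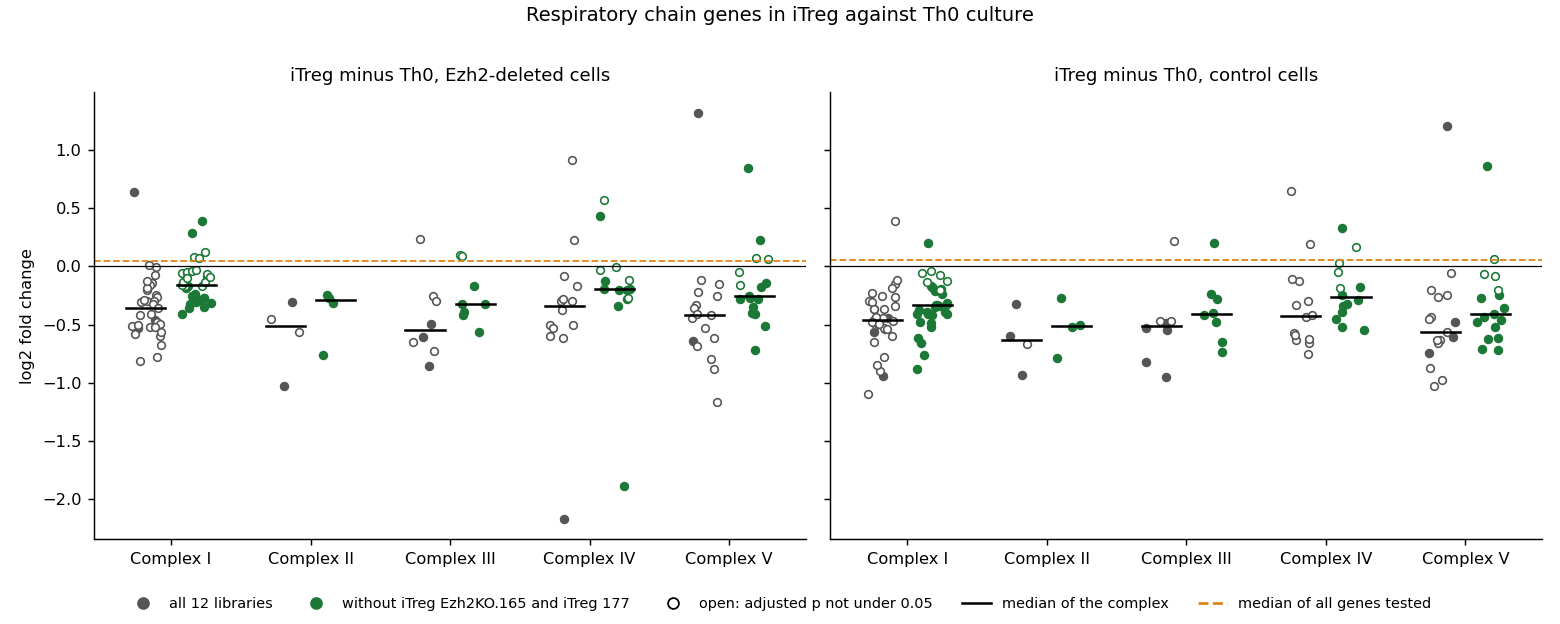
Log2 fold change of iTreg over Th0 culture (vertical axis) for tested members by complex, Ezh2-deleted cells on the left and control cells on the right. Grey points use all 12 libraries, green points leave out iTreg Ezh2KO.165 and 177, filled points are called, black lines are medians of the plotted genes of a complex and the dashed line is the median of all genes. All 5 complexes have medians below 0 in both genotypes and both fits.

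The culture difference was larger with the libraries that stood apart, and members were called lower without them too. Ezh2KO.165 lay below the mean of Ezh2KO.150 and Ezh2KO.153 in 71 of 77 members, with a median log2 difference of -0.84, while all genes split 6462 below and 6374 above. Control 177 lay below controls 154 and 155 in 71 of 77 members, with a median of -0.45. The 2 remaining libraries of each group differed by medians of -0.02 and -0.00274. Complex V showed the largest median in both libraries, at -0.93 in Ezh2KO.165 and -0.53 in control 177. Cox7a2l, Atp5sl, Ndufa6 and Uqcrh were higher in both, against the direction of most members. Libraries numbered Ezh2KO.165 and control 177 exist in both cultures, and between libraries of the same number the median difference, iTreg minus Th0, was -0.93 for Ezh2KO.165 and -0.64 for control 177. Myeloid markers summed to 8.44 CPM in iTreg Ezh2KO.165 and 24.9 CPM in iTreg control 177, almost all Itgam, against 0.900 to 3.16 CPM in the other iTreg libraries, with Csf1r and Lyz2 at or near 0, and their part was not tested. Without the 2 libraries 44 of 78 members were called lower and 5 higher in Ezh2-deleted cells, against 28.9% and 28.8% of all genes. The median was -0.19. The 44 include Cox4i2, which entered that fit through its reads in Ezh2-deleted Th0 libraries, so its call restates those reads. In control cells 58 were called lower and 4 higher, against 31.8% and 35.1%, with a median of -0.34. All 4 members of complex II were called lower in both genotypes in that fit. Calls with all libraries were fragile: without control iTreg 177, control Th0 176 or control Th0 177, 0 members were called in control cells, without control Th0 173 only 1 was, and without iTreg Ezh2KO.165, 63 were. Other cells also differed between cultures, with B cell marker sums of 3.73 to 11.9 CPM over iTreg and 23.2 to 165.1 CPM over Th0 libraries. CD8 T cell markers summed to 39.6 to 138.5 CPM in Ezh2-deleted iTreg and 6.33 to 10 CPM in Ezh2-deleted Th0 libraries, with 2 of 2 called higher, and to 18.01 to 26.7 CPM in control iTreg and 6.91 to 10.01 CPM in control Th0 libraries, with 1 of 2 called higher (2 without the libraries that stood apart). The part of these cells was not tested.

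H3K27me3 was measured as reads over each gene interval, given as density in CPM per kilobase. Active genes usually carry little of this mark. The 76 widely expressed members had a median density of 0.838 and 0.804 in Ezh2KO.10 and Ezh2KO.9, against 0.441 and 0.291 in the control libraries 33 and 7. Over all 22269 intervals the medians were 0.971 and 0.904 in Ezh2-deleted libraries and 0.813 and 0.845 in controls. In controls 75 of these 76 members thus lay below the middle of all intervals. Genes of like RNA level did the same: 1923 genes in the RPKM range of 36.5 to 278 had medians of 0.855 in Ezh2-deleted and 0.396 in control cells, and the 61 members in that range had 0.836 and 0.396.

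Of 81 members tested, 58 gained and 2 lost H3K27me3 reads with the deletion, against 32.2% and 20.6% of 20376 intervals tested (edgeR, scaled by library size, adjusted p under 0.05). The median log2 fold change was 1.09, against 0.21 over all intervals. By complex 28 of 35 members gained in complex I, 4 of 4 in complex II, 7 of 8 in complex III, 8 of 18 in complex IV and 11 of 16 in complex V. Sdhd, a membrane anchor of complex II, had densities of 1.14 and 0.873 in Ezh2-deleted libraries, against 0.311 and 0.193 in controls, with a log2 fold change of 2.01 ± 0.339 (adjusted p = 0.00106). Ndufa6 had 1.00 and 0.973, against 0.281 and 0.310 (1.73 ± 0.341, adjusted p = 0.00242). Sdhb had 0.916 and 0.889, against 0.395 and 0.362 (1.25 ± 0.249, adjusted p = 0.0025). Uqcrc2, a core protein of complex III, had 0.820 and 0.835, against 0.392 and 0.295 (1.27 ± 0.254, adjusted p = 0.00262). Ndufa4 had 0.880 and 0.965, against 0.496 and 0.171, and rose by 1.48 ± 0.415 (adjusted p = 0.0127). Ndufv3 had 0.886 and 0.681, against 0.433 and 0.129, and rose by 1.5 ± 0.478 (adjusted p = 0.0301).

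These values are shares of a library's reads, with no input or spike-in library used here. The spread of density narrowed with the deletion: the 10th to 90th percentile of all intervals was 0.600 to 1.28 and 0.542 to 1.37 in Ezh2-deleted libraries, against 0.295 to 2.08 and 0.220 to 2.26 in controls. A gain in such a share and a loss of reads elsewhere in the genome cannot be told apart. Without Ezh2KO.10 or without Ezh2KO.9, 0 members and 0 of all intervals were called. The 3 X-linked members had higher density in control 7 than in control 33. Ndufa1 had 1.00 and 0.804 in Ezh2-deleted libraries, against 0.226 in control 33 and 1.24 in control 7. Ndufb11 differed less, with 0.577 and 0.509 in Ezh2-deleted libraries, against 0.392 in control 33 and 0.526 in control 7. Medians over the 1014 X intervals were 0.945 and 0.721 in Ezh2-deleted libraries and 0.466 and 1.19 in control 33 and control 7.

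The 5 highest control densities belonged to complex IV isoforms whose RNA was at or near 0. Cox6b2, a testis isoform of subunit 6b, had 0.915 and 0.965 in Ezh2-deleted libraries, against 1.66 and 3.52 in controls, and fell by 1.47 on the log2 scale (SE 0.419, adjusted p = 0.0124). Without control 7 its change was -0.82 (adjusted p = 0.155). Ndufa4l2, a paralogue of Ndufa4 known for its induction by low oxygen, had 1.47 and 0.811, against 1.75 and 2.40 (-0.84 ± 0.355, adjusted p = 0.0646). Cox4i2 had 1.14 and 0.926, against 1.83 and 1.97, and fell by 0.87 on the log2 scale (adjusted p = 0.0104). Cox8c, a testis isoform of subunit 8, had 1.78 and 1.39, against 2.05 and 1.57 (-0.17 ± 0.354, adjusted p = 0.709). Cox7b2 differed by 0.01 ± 0.135 (adjusted p = 0.97). Cox8b, a muscle isoform of subunit 8 with almost no RNA here, had 1.06 and 0.657 in Ezh2-deleted and 0.657 and 0.107 in control libraries, so low RNA did not always go with high density. Of the 8 isoforms known for restricted tissues, 3 lay below the middle of all intervals in controls. Among widely expressed paralogues, Cox6b1 was at 0.858 and 0.891 in Ezh2-deleted and 0.519 and 0.473 in control libraries, and Cox4i1 at 0.785 and 0.855 in Ezh2-deleted and 0.390 and 0.202 in control libraries, below Cox6b2 and Cox4i2. The X-linked Cox7b, paralogue of Cox7b2, had 1.03 and 0.665 in Ezh2-deleted libraries, against 0.266 in control 33 and 1.18 in control 7.

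**Figure D5:**
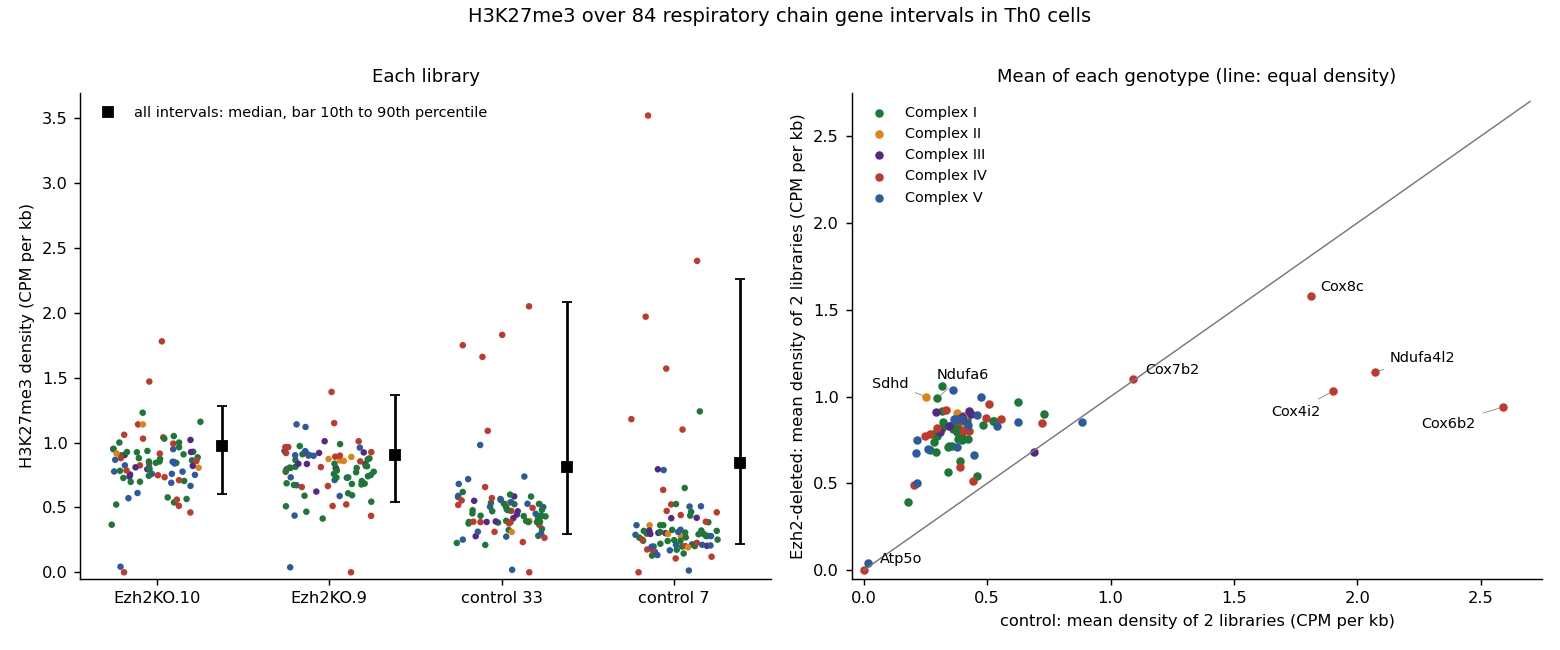
H3K27me3 density (CPM per kb) of all 84 members, in each library on the left and as genotype means on the right, coloured by complex. Black squares and bars give the median and the 10th to 90th percentile of all intervals, and the diagonal marks equal density. Most members lie near 0.8 in Ezh2-deleted and near 0.4 in control cells, and Cox6b2, Ndufa4l2 and Cox4i2 lie furthest below the diagonal.

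Cox6b2 and Cox4i2 were the members called lower for the mark, and their RNA differed. Cox6b2 RNA was at 1.53 ± 0.212 RPKM in Ezh2-deleted and 1.20 ± 0.369 RPKM in control Th0 cells (adjusted p = 0.712), against 263 ± 7.61 and 238 ± 9.55 RPKM for Cox6b1. Ndufa4l2 had no read in any Ezh2-deleted library and 3 reads in control Th0 173. Cox8c and Cox7b2 had no reads in all 12 libraries, and a count of 0 in a library allows up to 3. Cox7a1, the muscle isoform of subunit 7a, was at 0.933 ± 0.461 RPKM in Ezh2-deleted and 1.24 ± 0.589 RPKM in control Th0 cells, and its control density of 0.388 was no higher than that of the widely expressed members. Cox4i2 had the 10 to 20 reads in Ezh2-deleted Th0 libraries given above. Cox8b had 1 read in 1 library, and the Cox6a2 interval overlaps others and held no ChIP reads.

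Other genes of mitochondrial energy supply were counted from lists chosen by function: 37 tested assembly factors, 14 electron carriers, 14 TCA cycle enzymes, 15 regulators of mitochondrial biogenesis and 76 mitochondrial ribosomal genes. In iTreg deletion few were called, against 9.45% of all genes higher and 7.26% lower. The calls were 1 assembly factor in each direction, 1 electron carrier higher, 1 TCA cycle enzyme higher, 2 biogenesis regulators lower and 1 mitochondrial ribosomal gene in each direction. Without the libraries that stood apart the counts were far larger, against 28.7% higher and 28.3% lower. Then 17 assembly factors were called higher and 3 lower, 10 electron carriers higher and 1 lower, 6 TCA cycle enzymes higher and 1 lower, 4 biogenesis regulators higher and 2 lower, and 46 mitochondrial ribosomal genes higher and 4 lower.

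In Th0 deletion 1 assembly factor and 1 biogenesis regulator were called in each direction and no gene of the other lists, against 8.74% higher and 3.22% lower. Without the 2 iTreg libraries, against 26.3% and 25.3%, 3 assembly factors were called higher and 11 lower, 4 electron carriers higher and 2 lower, 4 TCA cycle enzymes higher and 2 lower, 3 biogenesis regulators higher and 7 lower, and 9 mitochondrial ribosomal genes higher and 15 lower.

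Between cultures these lists had negative medians like the members. In Ezh2-deleted cells, where 8.75% of all genes were called lower and 16.6% higher, 3 assembly factors were called lower and 2 higher, 1 electron carrier lower, 2 TCA cycle enzymes lower, 2 biogenesis regulators lower and 15 mitochondrial ribosomal genes lower. Without the libraries that stood apart 28.9% of all genes were called lower and 28.8% higher. The lower calls were then 11 assembly factors, 11 electron carriers, 11 TCA cycle enzymes, 6 biogenesis regulators and 58 mitochondrial ribosomal genes. Higher calls were 4 assembly factors, 1 electron carrier and 1 biogenesis regulator. The lower calls of assembly factors, 3 of 37 with all libraries and 11 of 37 in that fit, lay near the shares of all genes. In control cells, where 11.5% were called lower and 19.9% higher, 18 assembly factors were called lower and 3 higher, 6 electron carriers lower, 5 TCA cycle enzymes lower, 4 biogenesis regulators lower and 2 higher, and 39 mitochondrial ribosomal genes lower. Without the libraries that stood apart, against 31.8% lower, the lower calls were 26, 13, 12, 9 and 71 in the same order of lists. Higher calls in that fit, against 35.1% of all genes, were 4 assembly factors, 3 biogenesis regulators and 1 mitochondrial ribosomal gene. Median log2 differences of the mitochondrial ribosomal genes were -0.55 in Ezh2-deleted and -0.69 in control cells, against -0.41 and -0.48 for the respiratory chain members.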

How the data were processed

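The deposited values are whole-number read counts per gene, and the authors' counts were made with featureCounts 1.4.2, per the file headers. Per the submitters' processing notes, reads were trimmed with Trimmomatic 0.30 and aligned to mm10 with TopHat2 2.0.6 (RNA) or Bowtie2 2.1.0 (ChIP). Strand settings of the counting are not given in the sources used here. ChIP values have no input library beside them here.

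From these counts CPM, RPKM and density were computed. Genes were tested by the quasi-likelihood F test of edgeR 4.0.16 (R 4.3.3; RNA with TMM scaling and filterByExpr at 10 counts, 1 fit of 4 groups; Benjamini-Hochberg adjustment over all genes, called at adjusted p under 0.05). ChIP counts were scaled by library size. DESeq2 1.42.0 and other settings were alternatives. The scripts were tested on simulated data. A count of 0 allows up to 3 reads, for counting error only. The design text calls the replicates biological, but without animal records p-values measure the spread between these libraries.

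The rule named core members, tissue-restricted isoforms with their paralogues, called members with the largest changes, the 3 smallest p of each deletion contrast and of the difference between cultures, the 4 largest called culture differences in each direction, the 5 highest control H3K27me3 densities and up to 6 members called for the mark. Atp5f1, Atp5g1, Atp5g3, Ndufa1 and, for the fit without 2 libraries, Cox5a, Atp5b and Cox7a2l were chosen after their values were seen. The members and lists were chosen with earlier results of these data known. RNA of 7 members was not tested for low counts: Ndufs5, Ndufa4l2, Cox4i2, Cox6a2, Cox7b2, Cox8b and Cox8c. Values of 1 core member are not reported here. Of all ChIP intervals, 4875 overlap another, so their reads may be lost.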

Additional observations from a re-analysis of the deposited data

How the results depend on the processing

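Counts of called members moved more than directions did. Calls over all genes tested moved too between all 12 libraries and the fit without iTreg Ezh2KO.165 and control 177. They went from 16.7% to 57.1% in iTreg deletion, 12% to 51.6% in Th0 deletion and 4.49% to 41.2% for the difference between cultures. For iTreg over Th0 they went from 25.4% to 57.6% in Ezh2-deleted and 31.4% to 66.8% in control cells. Member counts of the other alternatives are given below without such shares. Of the values of single members under the alternatives, 13 passed the threshold newly, 100 no longer passed and 0 reversed. Medians over members near 0 did change sign: in Th0 deletion -0.0288 became 0.0043 with library-size scaling and 0.00875 without Th0 control 176. In iTreg deletion 0.0457 became -0.0994 without iTreg Ezh2KO.150, -0.0926 without Ezh2KO.153 and -0.103 without control 177, and for the difference between cultures 0.0509 became -0.04, -0.0685 and -0.0782 without the same libraries. In iTreg deletion 1 member was called; the 6 iTreg libraries alone gave 0, leaving out both iTreg Ezh2KO.165 and control 177 gave 33, and leaving out 1 library gave 1 to 15, the highest without iTreg Ezh2KO.165. In Th0 deletion (1 called) the values were 2 with no low-count filter, 19 with 6 libraries and 23 without both. Leaving out 1 library gave 0 to 2, the lowest without Th0 Ezh2KO.165 or Ezh2KO.174. Ndufv3 also lost its call without Th0 Ezh2KO.175, control 173 or control 176, so the calls there are of other members. The 23, like the 29 and 49 without both given below, include Cox4i2, which entered that fit through its reads in Ezh2-deleted Th0 libraries. Whether Cox4i2 is in the other counts is not given here. For the difference between cultures in the deletion's effect (0 called) DESeq2 gave 1, leaving out both gave 29, and leaving out 1 gave 0 to 8, the highest without iTreg Ezh2KO.165. For iTreg over Th0 in Ezh2-deleted cells (11 called) the values were 6 with no filter, 19 with DESeq2, 1 with 6 libraries, 49 without both and 1 to 17 without 1 library, the lowest without Th0 Ezh2KO.165 or Ezh2KO.174. For iTreg over Th0 in control cells (17 called) they were 7 with library-size scaling, 10 with no filter, 28 with DESeq2, 47 with 6 libraries, 62 without both and 0 to 63 without 1 library. For H3K27me3 (60 called) TMM scaling gave 54 and non-overlapping intervals 47, while leaving out 1 library gave 0 to 71, with the lone library assumed to vary like the other genotype. No paired analysis was possible because the groups compared share at most 1 replicate number. The cause of these shifts was not tested. Depth limits the isoforms with few reads.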

Other observations

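AA467197, known as Nmes1, is a paralogue of Ndufa4 whose name does not match the gene rule, and it was chosen after its values were seen. It had 290.2 CPM in iTreg Ezh2KO.150, 279.5 CPM in Ezh2KO.153 and 30.3 CPM in Ezh2KO.165, against 15.7, 13.5 and 2.46 CPM in control iTreg libraries. The log2 fold change was 4.24 ± 0.885 (edgeR, adjusted p = 0.00881) and 4.28 ± 0.37 without iTreg Ezh2KO.165 and control 177 (adjusted p = 9.1e-05), higher in 3 of 3 libraries, while Ndufa4 was at -1.63 in the same comparison. In Th0 it had 17.0, 31.2 and 38.2 CPM with the deletion, against 6.55, 8.86 and 8.44 CPM in controls (1.82, adjusted p = 0.21, and 0.00351 without those iTreg libraries). Its H3K27me3 density was 0.913 and 1.09 in Ezh2-deleted libraries, against 2.56 and 2.81 in controls (-1.43 ± 0.267, adjusted p = 0.00184), whereas that of Ndufa4 was 0.880 and 0.965, against 0.496 and 0.171. The interval, chr2:122636986-122641191 on the plus strand, overlaps another and holds the Mir147 hairpin. Whether the changes of the paralogues are linked was not tested.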
